A study of Mus musculus with 8 samples.

Results

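Among cells sorted from tumours as dendritic cells without EGFP signal, the libraries labelled cDC1 and those labelled cDC2 were compared across genes. The comparison uses 4 of the 8 libraries of the series, taken by their titles: 2 labelled cDC1 EGFP- and 2 labelled cDC2 EGFP-. All came from MC38-EGFP tumours in mice of genotype WT, MC38 being a colon carcinoma line of mouse origin here made to produce enhanced green fluorescent protein (EGFP). Cells were sorted from the tumours by flow cytometry, first by subset and then by EGFP signal, so an EGFP-negative cell is one without detectable tumour fluorescence. The labels name no drug, sex, age or tumour stage for any library, and give colon cancer, the tumour, as the cell type of every one. They do not say whether replicates 1 and 2 came from separate mice, so the p-values rest on how far the deposited libraries of a group differ, and that spread may be technical only.

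Conventional dendritic cells arise from bone marrow precursors that depend on the cytokine receptor FLT3. The cDC1 subset needs the transcription factors IRF8 and BATF3, takes up dead cells and presents their antigens on class I molecules to CD8 T cells. The cDC2 subset relies more on IRF4 and presents antigen on class II molecules to CD4 T cells. In tumours, macrophages share several surface proteins with cDC2, among them CD11b (Itgam), CD11c (Itgax) and SIRPA.

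Library totals in the 4 libraries ranged from 20070316 to 22195681 counts, with 9602 to 10951 genes detected, and the ribosomal RNA precursor Rn45s took 19.4 to 28.8% of them. Levels are given in CPM, counts scaled to library size with TMM factors, and fold changes are cDC1 relative to the cDC2 libraries. Replicates correlated at a Pearson r of 0.850 in cDC1 and 0.898 in the cDC2 libraries, computed over genes on log2(CPM + 1). Markers of T and NK cells, mast cells and red blood cells summed to at most 1.26 CPM in any of the 4 libraries, and those of B and plasma cells to at most 3.44 CPM. Epithelial markers summed to 1.53 and 25.6 CPM in cDC1 and to 0.382 and 23.3 CPM in the cDC2 libraries, so both replicate 2 libraries stood above both replicate 1 libraries. Of these sums, Cdh1 alone gave 0 and 5.06 CPM in cDC1 and 0.328 and 23.3 CPM in the cDC2 libraries. Krt8, Krt19, Krt20 and Cldn4 had 0 counts in all 4 libraries.

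The labelled identity was checked first against defining genes. In the cDC1 libraries, cDC1 genes were abundant. Xcr1, the chemokine receptor gene that marks this subset, was at 307 and 327 CPM in cDC1 and 4.21 and 0.0892 CPM in the cDC2 gate, and Clec9a, which encodes a receptor for dead cells, at 216 and 176 CPM in cDC1 and 3.11 and 3.97 CPM in the cDC2 gate. In the libraries labelled cDC2 the picture was mixed. Irf4 was low throughout, at 0.325 and 3.91 CPM in cDC1 and 0.273 and 8.78 CPM in the cDC2 gate. Zbtb46, a transcription factor gene of the conventional dendritic cell lineage, was at 34.977 and 9.94 CPM in cDC1 and 0.0546 and 0.134 CPM in the cDC2 gate. Flt3 was read at 207 and 168 CPM in cDC1 and 10.9 and 0 CPM in the cDC2 gate, so 1 of the 2 cDC2 libraries had 0 counts of it. Cd209a, a lectin of a part of cDC2, was at 28.9 and 0.0460 CPM in cDC1 and 65.6 and 55.1 CPM in the cDC2 gate. As a list, cDC2 genes summed to 583 and 790.1 CPM in cDC1 and to 1951 and 2322 CPM in the cDC2 libraries, and 14 of 19 exceeded 1 CPM in both of the latter. Those include Itgam and Sirpa, which macrophages carry as well.

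Macrophage genes, in contrast, were among the most abundant of the libraries labelled cDC2. The 24 macrophage markers summed to 2376 and 3752 CPM in cDC1 and to 64000 and 52781 CPM in the cDC2 libraries. Lyz2, the lysozyme of myeloid cells, stood at 1692 and 2247 CPM in cDC1 and 22927 and 18534 CPM in the cDC2 gate. Adgre1, which encodes the macrophage surface protein F4/80, stood at 5.52 and 3.68 CPM in cDC1 and 314 and 199 CPM in the cDC2 gate. In both cDC2 libraries 22 of the 24 markers exceeded 1 CPM, the others being Cd163, with 0 counts in both, and Timd4, with 0 in replicate 1. Mertk, Folr2 and Siglec1 had 0 counts in both cDC1 libraries, where 13 markers exceeded 1 CPM in both. The part of macrophages in the results was not tested, and each difference given below sets cDC1 against whatever cells the cDC2 sort held, called the cDC2 gate from here on. In bulk libraries of this kind, fewer cells of a type and less RNA per cell cannot be told apart.

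**Figure D1:**
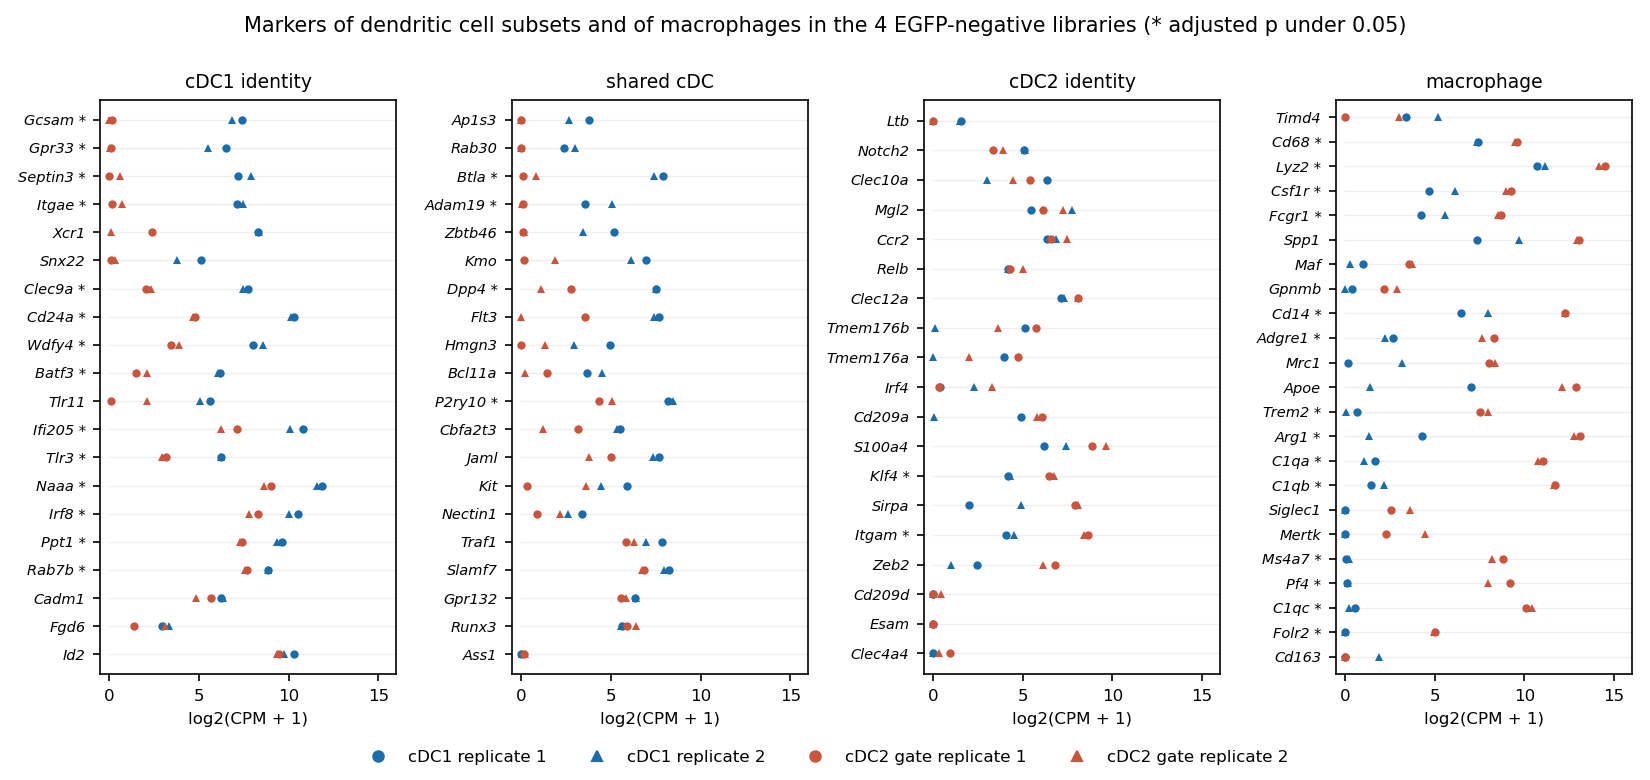
Level of each listed marker gene as log2(CPM + 1) in the 4 EGFP-negative libraries, with 1 symbol per library, blue for cDC1 and red for the cDC2 gate; a star marks an adjusted p under 0.05. All 20 cDC1 identity genes have a positive fold change, and 22 of 23 tested macrophage genes a negative one, of which 1 is not drawn.

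Of 10089 genes tested with edgeR, 292 differed between cDC1 and the cDC2 gate at an adjusted p under 0.05 (2.89% of those tested), 106 higher (1.05%) and 186 lower (1.84%) in cDC1. The smallest called difference was a log2 fold change of 1.05 in size, and the median size was 3.43. Over all tested genes the median log2 fold change was −0.05, and 52.5% had no overlap between the groups. Of the 292, 18 had 0 counts in both cDC1 libraries and 3 had 0 in both cDC2 libraries. The count moved with the libraries in the fit. With all 8 libraries of the series in one model it was 41, of which 40 were among the 292, and without cDC2 replicate 1 or 2 it fell to 29 or 38. DESeq2 called 1391 of the 10089 genes, which included all 292. The 41 of the 8-library model were 0.36% of 11394 genes. Counts given below for single lists under these fits are to be read beside those over all genes. Where a gene had 0 counts in 1 group, its fold is a bound against 3 counts over that group. List medians were also taken from ratios of mean CPM in place of edgeR fold changes, each group mean set to at least its 3-count level. They were then 4.66 for cDC1 identity, 4.14 for shared dendritic cell, −6.15 for macrophage and −2.05 for glycolysis genes. For the other lists whose medians follow, they moved by at most the last printed digit.

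**Figure D2:**
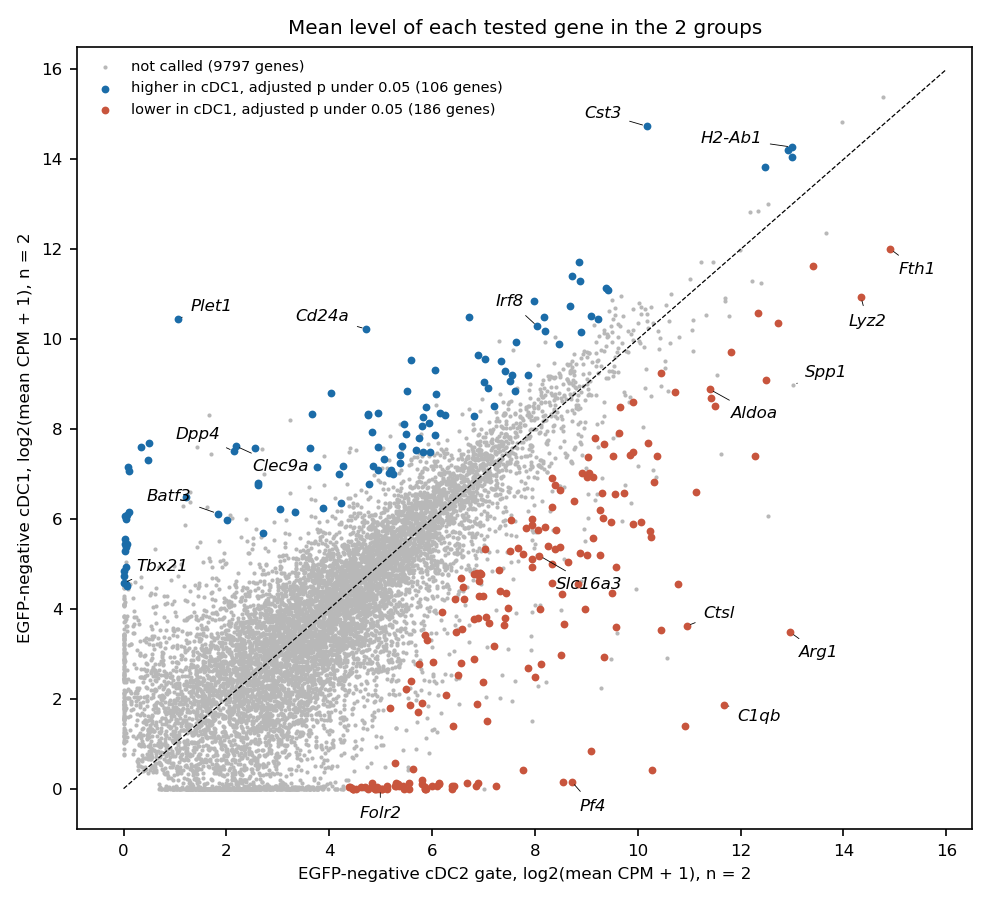
Mean level of each of the 10089 tested genes in the EGFP-negative cDC2 gate (x) and in EGFP-negative cDC1 (y), both as log2(CPM + 1) with 2 libraries a group; the dashed line marks equal levels. The 106 called higher genes in blue lie above the line, from genes near 0 in the cDC2 gate such as Tbx21 to the abundant Cst3, and the 186 called lower genes in red lie below it.

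Genes of cDC1 identity were higher in cDC1. Of 20 tested, 14 passed the test upward and 0 downward, with a median log2 fold change of 4.64. The surface glycoprotein gene Cd24a was read at 1249 and 1141 CPM in cDC1 and 26.3 and 24.3 CPM in the cDC2 gate. Its log2 fold change was 5.56 ± 0.22, adjusted p = 0.00493, and the libraries of the groups were far apart. Irf8 stood at 1474 and 1018 CPM in cDC1 and 308 and 219 CPM in the cDC2 gate, high in all 4 libraries and highest in cDC1 (log2 fold change 2.24 ± 0.30, adjusted p = 0.0346). Its partner Batf3 stood at 71.2 and 65.8 CPM in cDC1 and 1.86 and 3.25 CPM in the cDC2 gate (log2 fold change 4.74 ± 0.50, adjusted p = 0.0218). Clec9a, with the values given above, differed by a log2 fold change of 5.79 ± 0.33, adjusted p = 0.00583.

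Other genes of the list act in uptake, sensing and presentation. Wdfy4, needed for cross-presentation of cell-associated antigen, was at 260.1 and 382 CPM in cDC1 and 9.72 and 13.6 CPM in the cDC2 gate (log2 fold change 4.78 ± 0.36, adjusted p = 0.0112). Tlr3, the sensor of double-stranded RNA, was at 74.0 and 73.2 CPM in cDC1 and 7.81 and 6.73 CPM in the cDC2 gate (log2 fold change 3.34 ± 0.37, adjusted p = 0.023). Itgae, which encodes the integrin CD103, was at 139.7 and 175 CPM in cDC1 and 0.109 and 0.669 CPM in the cDC2 gate (log2 fold change 8.59 ± 0.83, adjusted p = 0.0194), near the detection floor in the cDC2 gate. The orphan receptor gene Gpr33 and the germinal-centre gene Gcsam had 2 counts each over both cDC2 libraries, for ratios of 1372 (95% counting interval 379 to 11334) and 2890.2 (95% counting interval 799.7 to 23870.5). Xcr1 missed the threshold (log2 fold change 7.23 ± 1.54, adjusted p = 0.101), with cDC2 libraries that differed from each other at a low level. The list's count was 2 in the 8-library model, 4 without cDC2 replicate 1, 6 without cDC2 replicate 2 and 17 by DESeq2.

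Genes that conventional dendritic cells share as a lineage were tested next, 19 of a list of 20. They had a median log2 fold change of 4.13, with 4 higher in cDC1 and 0 lower, and 18 of 19 fold changes were positive. Dpp4, the peptidase that sitagliptin in the series title inhibits, is one of the 4. It was read at 179 and 182 CPM in cDC1 and 5.74 and 1.11 CPM in the cDC2 gate. The cDC1 libraries were nearly equal and both stood above both cDC2 libraries, which differed from each other (log2 fold change 5.73 ± 0.87, adjusted p = 0.0471). This call did not hold in the 8-library model (adjusted p = 0.2). Btla, an inhibitory receptor of the immunoglobulin family, stood at 241 and 171 CPM in cDC1 and 0.0546 and 0.758 CPM in the cDC2 gate (log2 fold change 8.91 ± 1.02, adjusted p = 0.0267), the lysophospholipid receptor gene P2ry10 at 288 and 355 CPM in cDC1 and 19.5 and 32.7 CPM in the cDC2 gate (log2 fold change 3.62 ± 0.36, adjusted p = 0.0201), and the metalloprotease gene Adam19 had 2 counts in the cDC2 gate, a ratio of 446 (95% counting interval 123 to 3688). Zbtb46 (log2 fold change 7.79 ± 1.31, adjusted p = 0.0581) and Flt3 (log2 fold change 5.11 ± 1.95, adjusted p = 0.253) missed the threshold. None of the list passed in the 8-library model, without cDC2 replicate 1 or 2 it was 3 and 1, and by DESeq2 13.

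Transcription factors of the myeloid lineages differed in both directions, with 3 higher and 3 lower in cDC1 of 29 tested (median −0.10). Higher, beside Irf8 and Batf3, was Tbx21, which encodes T-bet. It was read at 29.2 and 16.4 CPM in cDC1 and 0 CPM in both cDC2 libraries, at least 309.9-fold higher in cDC1 against 3 counts over the cDC2 group (adjusted p = 0.0471). Among the lower were Cebpb, a regulator of monocytes and macrophages, at 17.1 and 8.83 CPM in cDC1 and 183 and 157 CPM in the cDC2 gate (log2 fold change −3.71 ± 0.43, adjusted p = 0.0268), and Klf4. In both, the cDC2 libraries stood above both cDC1 libraries. Zeb1 and Zeb2, related repressors, pointed in opposite directions without passing: Zeb1 had 0 counts in both cDC2 libraries (adjusted p = 0.0922), and Zeb2 stood at 4.41 and 0.966 CPM in cDC1 and 112 and 69.4 CPM in the cDC2 gate (log2 fold change −5.08 ± 0.88, adjusted p = 0.0609). None of the 29 passed in the 8-library model or without either cDC2 library, and DESeq2 called 15.

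Promoters of 2 genes higher in cDC1 are printed because IRF family factors such as IRF8 can bind the interferon-stimulated response element. Its core, GAAA followed after 2 bases of any kind by a second GAAA, was searched on both strands of the 250 bases before each RefSeq transcription start (build GRCm38.p6, the assembly of mm10). It was found in 2.97% of 9914 windows of tested genes, in 4.39% of 114 windows of genes higher in cDC1 and in 5.68% of 176 windows of genes lower. Dpp4 and Ifi205, an interferon-inducible gene of the list (1797 and 1081 CPM in cDC1 and 136 and 73.6 CPM in the cDC2 gate, log2 fold change 3.78 ± 0.45, adjusted p = 0.0274), each hold 1 match, in capitals.
Dpp4 (chr2:62412232-62412481, minus strand): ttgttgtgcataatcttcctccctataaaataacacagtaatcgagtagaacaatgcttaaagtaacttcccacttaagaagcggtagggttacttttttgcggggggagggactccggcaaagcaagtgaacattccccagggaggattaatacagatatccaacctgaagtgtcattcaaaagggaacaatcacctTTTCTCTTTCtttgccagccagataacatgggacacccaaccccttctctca
Ifi205 (chr1:174031756-174032005, minus strand): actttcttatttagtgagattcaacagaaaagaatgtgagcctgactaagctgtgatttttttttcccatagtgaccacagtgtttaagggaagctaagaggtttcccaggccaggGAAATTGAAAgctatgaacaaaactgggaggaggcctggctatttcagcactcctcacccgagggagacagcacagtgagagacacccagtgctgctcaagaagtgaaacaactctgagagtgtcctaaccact
The match begins 52 bases before the annotated start in Dpp4, where it reads on the opposite strand, and 134 bases before it in Ifi205.

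Genes named for cDC2 were divided, with 12 negative and 4 positive fold changes. Of 16 tested, 2 were lower in cDC1 and 0 higher, with a median of −0.94. The 2 were Itgam, the CD11b integrin that macrophages carry too, at 15.958 and 22.2 CPM in cDC1 and 403 and 334 CPM in the cDC2 gate (log2 fold change −4.27 ± 0.30, adjusted p = 0.011), and Klf4 at 17.0 and 18.5 CPM in cDC1 and 86.7 and 108 CPM in the cDC2 gate (log2 fold change −2.45 ± 0.32, adjusted p = 0.0303). Sirpa stood at 3.06 and 29.1 CPM in cDC1 and 240.3 and 272 CPM in the cDC2 gate (log2 fold change −3.99 ± 1.07, adjusted p = 0.158), with all cDC2 values above both cDC1 values and an unequal pair in cDC1. The lectin genes Mgl2 and Clec10a overlapped between the groups: Mgl2 ranged from 43.5 to 217 CPM in cDC1 and from 68.2 to 149 CPM in the cDC2 gate, and Clec10a from 6.99 to 82.3 and from 21.1 to 41.8 CPM. Itgax, read in both subsets and in macrophages, was at 44.6 and 63.9 CPM in cDC1 and 52.6 and 82.7 CPM in the cDC2 gate (log2 fold change −0.32 ± 0.38, adjusted p = 0.782). Neither call of the list held in the 8-library model or without either cDC2 library.

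Of 23 macrophage markers tested, 15 passed downward and 0 upward, and the median log2 fold change was −6.14. Among them were the 3 genes of the complement component C1q, which tissue macrophages secrete. C1qa was at 2.18 and 1.10 CPM in cDC1 and 2124 and 1720.2 CPM in the cDC2 gate, C1qb at 1.76 and 3.54 CPM in cDC1 and 3337 and 3252 CPM in the cDC2 gate and C1qc at 0.464 and 0.184 CPM in cDC1 and 1107 and 1383 CPM in the cDC2 gate. These are folds of 1171, 1242 and 3843 in favour of the cDC2 gate, each at adjusted p = 0.00493. Arginase 1 (Arg1), an enzyme of tumour macrophages, stood at 18.8 and 1.52 CPM in cDC1 and 8891 and 7099.6 CPM in the cDC2 gate (log2 fold change −9.62 ± 1.46, adjusted p = 0.0471), so the cDC1 replicates differed from each other by more than 10 times at a low level. Trem2, a lipid receptor of tumour macrophages, was at 0.603 and 0.0460 CPM in cDC1 and 186 and 246 CPM in the cDC2 gate (log2 fold change −9.35 ± 0.996, adjusted p = 0.0224). Csf1r, which encodes the receptor for the macrophage growth factor, was at 24.4 and 68.5 CPM in cDC1 and 612 and 507 CPM in the cDC2 gate (log2 fold change −3.59 ± 0.56, adjusted p = 0.0482). Apoe and Spp1 were abundant in the cDC2 gate but uneven in cDC1. Apoe stood at 131 and 1.61 CPM in cDC1 and 7519.9 and 4304 CPM in the cDC2 gate (adjusted p = 0.208) and Spp1 at 166 and 844 CPM in cDC1 and 8587 and 7977 CPM in the cDC2 gate (adjusted p = 0.0896). The list's count was 3 in the 8-library model, 6 and 7 without cDC2 replicate 1 and 2, and 21 by DESeq2.

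The complement list pointed the same way, 8 of 13 tested lower in cDC1 and 0 higher (median −5.72). Beside C1q and Itgam, these were the anaphylatoxin receptor genes C5ar1 and C3ar1, factor B (Cfb) and the C1q-binding protein gene Cd93. C5ar1 was read at 14.6 and 15.5 CPM in cDC1 and 507 and 494 CPM in the cDC2 gate (log2 fold change −5.05 ± 0.23, adjusted p = 0.00493), with replicates of each group close together. C3ar1 was at 5.38 and 8.37 CPM in cDC1 and 421 and 306 CPM in the cDC2 gate (log2 fold change −5.72 ± 0.39, adjusted p = 0.00996) and Cfb at 23.8 and 21.3 CPM in cDC1 and 561 and 354 CPM in the cDC2 gate (log2 fold change −4.34 ± 0.33, adjusted p = 0.0112). The count was 2 in the 8-library model and 4 and 6 without cDC2 replicate 1 and 2.

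The AP-1 site TGANTCA, bound by FOS and JUN proteins, was searched in the same windows. Of the 176 windows of genes lower in cDC1, 13.6% held it, against 4.49% of 9914 windows of all tested genes and 5.26% of 114 windows of genes higher. These shares are a description with no test, and the 2 promoters below were chosen after they were seen. Among the macrophage markers called lower, 4 of 11 windows held it. Cd68, a lysosomal glycoprotein of macrophages (172 and 165 CPM in cDC1 and 759 and 710.1 CPM in the cDC2 gate, log2 fold change −2.12 ± 0.19, adjusted p = 0.015), has 2 matches and C3ar1 has 1, in capitals.
Cd68 (chr11:69666171-69666420, minus strand): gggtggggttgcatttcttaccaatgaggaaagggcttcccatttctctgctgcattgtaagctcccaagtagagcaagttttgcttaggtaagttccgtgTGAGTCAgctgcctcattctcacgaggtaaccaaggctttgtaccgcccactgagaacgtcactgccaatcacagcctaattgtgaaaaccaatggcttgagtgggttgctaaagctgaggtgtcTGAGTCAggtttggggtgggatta
C3ar1 (chr6:122856158-122856407, minus strand): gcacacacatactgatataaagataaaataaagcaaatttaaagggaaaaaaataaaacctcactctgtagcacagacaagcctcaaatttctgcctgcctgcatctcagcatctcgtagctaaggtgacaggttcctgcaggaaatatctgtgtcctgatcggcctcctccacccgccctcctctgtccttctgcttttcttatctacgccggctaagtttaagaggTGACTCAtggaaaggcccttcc
The matches begin 149 and 24 bases before the annotated start of Cd68 and 22 bases before that of C3ar1.

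Genes at the extremes were taken from the 15 largest fold changes in each direction with at least 10 CPM in the higher group. Bco2, a carotenoid oxygenase, and Tbx21 were among those with 0 counts in both cDC2 libraries. Bco2 was at 36.3 and 14.8 CPM in cDC1 and 0 CPM in both cDC2 libraries, at least 347-fold higher (adjusted p = 0.0491). Plet1, a surface protein gene, was the most abundant of the 15 at 1958 and 838 CPM in cDC1 and 1.04 and 1.11 CPM in the cDC2 gate (log2 fold change 10.33 ± 0.64, adjusted p = 0.00823). The chemokine receptor gene Cxcr3 had 1 count in the cDC2 gate against 37.5 and 88.3 CPM in cDC1, a ratio of 2567 (95% counting interval 460.3 to 101426), and the checkpoint receptor gene Ctla4 likewise had 1 count against 53.7 and 23.0 CPM, a ratio of 1558 (95% counting interval 279 to 61584).

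At the other end, 14 of the 15 had 0 counts in both cDC1 libraries. Sqrdl, a sulphide oxidase of mitochondria, stood at 88.5 and 76.9 CPM in the cDC2 gate and was at least 1194-fold lower in cDC1 (adjusted p = 0.0112). Olfml3 (55.5 and 60.5 CPM) was at least 837-fold lower, Mgst1, a glutathione transferase (74.6 and 39.5 CPM), at least 823-fold, and Blnk, a signalling adaptor of B cells and macrophages (47.5 and 38.4 CPM), at least 620.2-fold (adjusted p = 0.0147, 0.0229 and 0.0207). The integrin gene Itgb5 (20.8 and 46.9 CPM) was at least 489-fold lower (adjusted p = 0.0369). Of the 15, 3 passed in the 8-library model: Rin2, an endosomal regulator, Tmem171 and Folr2, a folate receptor gene of tissue macrophages. Their bounds were 829-fold, 662-fold and 445-fold.

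The most abundant transcripts differed too. Cst3, the secreted protease inhibitor cystatin C, was among the 10 highest of cDC1 and was read at 23315 and 31357 CPM in cDC1 and 1127 and 1177 CPM in the cDC2 gate (log2 fold change 4.57 ± 0.23, adjusted p = 0.00493). Of the 10 highest in the cDC2 gate, those lower in cDC1 were Lyz2 (log2 fold change −3.40 ± 0.24, adjusted p = 0.011), Arg1 and the ferritin genes Fth1 and Ftl1, whose proteins store iron. Fth1 was at 3678 and 4552 CPM in cDC1 and 36299 and 25252 CPM in the cDC2 gate (log2 fold change −2.90 ± 0.26, adjusted p = 0.0151) and Ftl1 at 3572 and 2783 CPM in cDC1 and 11744 and 9930.0 CPM in the cDC2 gate (log2 fold change −1.77 ± 0.21, adjusted p = 0.0274). Beta-actin (Actb) was in both sets of 10, at 39036 and 46292 CPM in cDC1 and 33199 and 22967 CPM in the cDC2 gate, and did not pass (log2 fold change 0.60 ± 0.23, adjusted p = 0.261). Thymosin beta 4 (Tmsb4x), which binds actin, was higher in cDC1 at 17326 and 16731 CPM in cDC1 and 8687 and 7709.9 CPM in the cDC2 gate (log2 fold change 1.05 ± 0.16, adjusted p = 0.046). Ferritin, actin and thymosin genes have processed copies in the genome, between which reads may have been split.

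**Figure D3:**
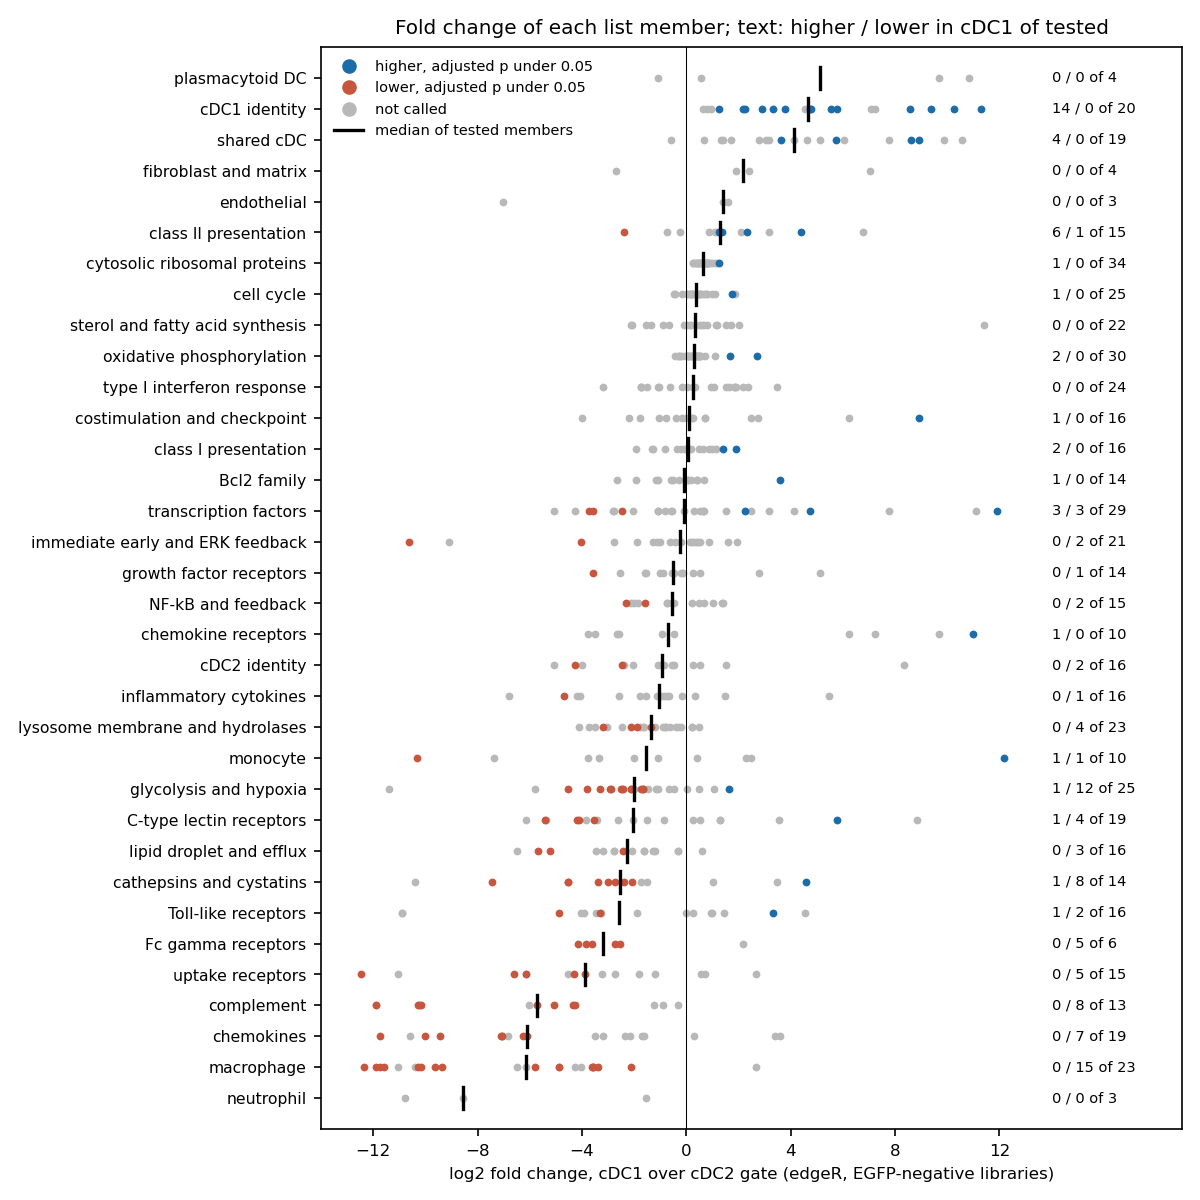
Log2 fold change (x, cDC1 over the cDC2 gate) of each tested member of the lists with 3 or more tested members, in order of their medians (black bars); the text at the right gives how many were called higher and lower of those tested. Lists of cDC1 and shared dendritic cell genes lie to the right with 14 and 4 called higher, and macrophage, chemokine and complement genes to the left with 15, 7 and 8 called lower.

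Genes of class II antigen presentation were higher in cDC1 as a list, 6 of 15 passing upward and 1 downward (median 1.28). Genes for the classical chains were abundant in all 4 libraries: H2-Ab1 was at 20645 and 18962 CPM in cDC1 and 8600.4 and 7743 CPM in the cDC2 gate (log2 fold change 1.28 ± 0.16, adjusted p = 0.0295), H2-Aa at 19187 and 18934 CPM in cDC1 and 8677 and 6883 CPM in the cDC2 gate (log2 fold change 1.29 ± 0.18, adjusted p = 0.0399) and H2-Eb1 at 14702 and 14388 CPM in cDC1 and 6172 and 5184 CPM in the cDC2 gate (log2 fold change 1.36 ± 0.17, adjusted p = 0.0292). Replicates lay close together, and the difference between cDC1 and the cDC2 gate was of similar size in the 3 genes. H2-DMa, part of the peptide exchange factor, stood at 1379.8 and 1433 CPM in cDC1 and 577 and 615 CPM in the cDC2 gate (log2 fold change 1.24 ± 0.17, adjusted p = 0.0385). Its modulator H2-Oa was low in the cDC2 gate at 129 and 84.4 CPM in cDC1 and 4.86 and 5.30 CPM in the cDC2 gate (log2 fold change 4.39 ± 0.40, adjusted p = 0.0151), and the partner chain H2-Ob was at 197 and 186 CPM in cDC1 and 0.109 and 3.2987 CPM in the cDC2 gate without passing (log2 fold change 6.78 ± 1.37, adjusted p = 0.0892). Cd83, which stabilises class II at the surface, was at 1694 and 1191 CPM in cDC1 and 267 and 309 CPM in the cDC2 gate (log2 fold change 2.33 ± 0.25, adjusted p = 0.0233). Cathepsin S (Ctss), which degrades the invariant chain, was the 1 member lower in cDC1, at 1612 and 1015 CPM in cDC1 and 7635 and 5974 CPM in the cDC2 gate (log2 fold change −2.37 ± 0.30, adjusted p = 0.0303), while the invariant chain gene Cd74 itself was at 28808 and 29861 CPM in cDC1 and 17259 and 14902 CPM in the cDC2 gate (log2 fold change 0.87 ± 0.16, adjusted p = 0.0696). In the 8-library model and without either cDC2 library, 1 member passed upward and 0 downward.

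Class I presentation showed no common direction, 8 of 16 fold changes being positive and 8 negative (median 0.07). Its 2 calls were the immunoproteasome subunit gene Psmb9 at 696 and 559 CPM in cDC1 and 195 and 143 CPM in the cDC2 gate (log2 fold change 1.89 ± 0.26, adjusted p = 0.0378) and the proteasome activator gene Psme1 at 1022 and 872 CPM in cDC1 and 389 and 321 CPM in the cDC2 gate (log2 fold change 1.42 ± 0.21, adjusted p = 0.0449), both higher in cDC1. The heavy chain gene H2-K1 and the light chain gene B2m were on the other side without passing. H2-K1 stood at 1627 and 1282 CPM in cDC1 and 3873 and 3154 CPM in the cDC2 gate (log2 fold change −1.27 ± 0.22, adjusted p = 0.0598) and B2m at 6064 and 4416 CPM in cDC1 and 14307 and 11569.6 CPM in the cDC2 gate (log2 fold change −1.30 ± 0.23, adjusted p = 0.0653). None passed in the 8-library model or without either cDC2 library, and DESeq2 called 5 higher and 3 lower.

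Some called genes of one direction were neighbours. Of 283 called genes with a RefSeq position, 44 lay within 100 kb of another with the same direction, in 18 clusters, 5 of them with 3 or more genes. This is a count with no background share. The largest, with 6 genes higher in cDC1, was the class II region at chr17:34092379-34316674 (GRCm38), from H2-Oa over H2-DMa, Psmb9, H2-Ab1 and H2-Aa to H2-Eb1. The 3 C1q genes lie at chr4:136880126-136898844, and Fcgr2b, Fcgr4 and Fcgr3 at chr1:170960558-171065915, all lower. C3ar1 with the lectin genes Clec4a1 and Clec4a3 (chr6:122847140-122969878) were lower too. Many neighbours are copies of one ancestral gene, and similar copies can share reads.

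Chemokine genes were lower in cDC1, 7 of 19 tested and 0 higher (median −6.11). They comprised attractants of neutrophils (Cxcl1 and Cxcl2), of monocytes and macrophages (Ccl6, Ccl8, Ccl9 and Ccl12) and platelet factor 4 (Pf4). Cxcl2 was at 25.5 and 19.7 CPM in cDC1 and 1925 and 1584 CPM in the cDC2 gate (log2 fold change −6.28 ± 0.28, adjusted p = 0.00493) and Ccl9 at 8.67 and 12.3 CPM in cDC1 and 1828 and 978 CPM in the cDC2 gate (log2 fold change −7.06 ± 0.48, adjusted p = 0.00996). Pf4 stood at 0.0928 and 0.138 CPM in cDC1 and 588 and 250.03 CPM in the cDC2 gate, a fold of 3634 (adjusted p = 0.00877). The cDC2 libraries differed among themselves in Ccl8, at 0.0464 and 0.138 CPM in cDC1 and 163 and 41.1 CPM in the cDC2 gate (log2 fold change −10.02 ± 1.13, adjusted p = 0.0257). In the opposite direction and without passing were the attractants of T cells Ccl17 at 42.2 and 20.8 CPM in cDC1 and 0 and 5.97 CPM in the cDC2 gate (adjusted p = 0.491) and Ccl22 at 24.0 and 40.7 CPM in cDC1 and 0.0546 and 5.26 CPM in the cDC2 gate (adjusted p = 0.381), each with 1 cDC2 library near 0. The count was 2 in the 8-library model and 3 and 4 without cDC2 replicate 1 and 2.

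Of 10 chemokine receptor genes tested, Cxcr3 alone passed, and not in the 8-library model (adjusted p = 0.443). Ccr7, which guides mature dendritic cells to lymph nodes, was at 275 and 69.9 CPM in cDC1 and 0.492 and 4.01 CPM in the cDC2 gate (log2 fold change 6.24 ± 1.29, adjusted p = 0.0938). Among 16 cytokine genes 1 passed: Osm, oncostatin M, was lower in cDC1 at 27.0 and 32.5 CPM in cDC1 and 805 and 712 CPM in the cDC2 gate (log2 fold change −4.67 ± 0.24, adjusted p = 0.00493) but not in the 8-library model (adjusted p = 0.587). Il1b was abundant in both groups, at 2312 and 2579.9 CPM in cDC1 and 6257 and 4531 CPM in the cDC2 gate (log2 fold change −1.14 ± 0.22, adjusted p = 0.0814). Il12b, a subunit of the interleukin 12 that cDC1 make, was at 16.7 and 97.3 CPM in cDC1 and 0.328 and 2.23 CPM in the cDC2 gate (log2 fold change 5.46 ± 1.38, adjusted p = 0.142), the cDC1 libraries being unequal. Il12a, which encodes the other subunit, had 0 counts in all 4 libraries. Of 15 NF-kB genes, 2 inhibitors were lower in cDC1, Nfkbie at 62.0 and 61.5 CPM in cDC1 and 184 and 186 CPM in the cDC2 gate (log2 fold change −1.58 ± 0.22, adjusted p = 0.0387) and Tnfaip3 at 29.1 and 18.4 CPM in cDC1 and 133 and 105 CPM in the cDC2 gate (log2 fold change −2.33 ± 0.37, adjusted p = 0.0495). The NF-kB list's median was −0.56, and 0 passed in the 8-library model or without either cDC2 library.

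Receptors for antibody were lower in cDC1, 5 of 6 tested and 0 higher (median −3.18). Fcgr3 was at 55.2 and 65.4 CPM in cDC1 and 1055 and 1082 CPM in the cDC2 gate (log2 fold change −4.15 ± 0.22, adjusted p = 0.00493), Fcgr2b, the inhibitory member, at 183 and 227 CPM in cDC1 and 1252 and 1105 CPM in the cDC2 gate (log2 fold change −2.52 ± 0.22, adjusted p = 0.0138), and the shared signalling chain gene Fcer1g at 406 and 414 CPM in cDC1 and 3157 and 2329 CPM in the cDC2 gate (log2 fold change −2.74 ± 0.23, adjusted p = 0.0135). Fcgrt, which recycles antibody from endosomes, was on the other side at 227 and 147 CPM in cDC1 and 18.9 and 64.2 CPM in the cDC2 gate (log2 fold change 2.17 ± 0.64, adjusted p = 0.194). None of the 6 passed in the 8-library model, and without cDC2 replicate 1 or 2 it was 1 and 2.

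Pattern recognition receptor genes had a few calls in each direction. Among Toll-like receptor genes and their partners, 1 of 16 was higher (Tlr3) and 2 were lower in cDC1 (median −2.58). Tlr2, for bacterial lipopeptides, stood at 58.0 and 69.3 CPM in cDC1 and 685 and 594 CPM in the cDC2 gate (log2 fold change −3.33 ± 0.23, adjusted p = 0.00996), and Cd14, the co-receptor for lipopolysaccharide, at 88.7 and 246 CPM in cDC1 and 4975 and 4978 CPM in the cDC2 gate (log2 fold change −4.89 ± 0.57, adjusted p = 0.0268). Tlr5 and Tlr7 had 0 counts in both cDC1 libraries, with 10.3 and 12.3 CPM of Tlr5 and 13.6 and 9.23 CPM of Tlr7 in the cDC2 gate (adjusted p = 0.108 for both). Among C-type lectin receptor genes, 1 of 19 was higher (Clec9a) and 4 were lower: Clec4a1, Clec4a3, Clec4d and Clec4e (median −2.06). Clec4a3 was at 2.88 and 2.53 CPM in cDC1 and 122 and 111 CPM in the cDC2 gate (log2 fold change −5.43 ± 0.35, adjusted p = 0.00823) and Clec4d at 23.1 and 48.6 CPM in cDC1 and 735 and 502 CPM in the cDC2 gate (log2 fold change −4.11 ± 0.48, adjusted p = 0.0268). Neither list had a call in the 8-library model, and of both lists Clec9a alone passed without cDC2 replicate 2 and none without replicate 1.

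Uptake receptor genes included 5 lower in cDC1 and 0 higher of 15 tested (median −3.88). Lrp1, an endocytic receptor of many ligands, was at 1.99 and 1.70 CPM in cDC1 and 123 and 142 CPM in the cDC2 gate (log2 fold change −6.16 ± 0.36, adjusted p = 0.00583), with both groups tight. The scavenger receptor genes Msr1 and Stab1 were at 2.13 and 11.1 CPM in cDC1 and 651 and 638 CPM in the cDC2 gate (log2 fold change −6.61 ± 0.91, adjusted p = 0.0384) and 1.95 and 3.59 CPM in cDC1 and 48.3 and 62.1 CPM in the cDC2 gate (log2 fold change −4.31 ± 0.56, adjusted p = 0.0309). Mertk, a receptor for dying cells, had 0 counts in cDC1 and 3.82 and 21.4 CPM in the cDC2 gate (adjusted p = 0.136). Lrp1 alone passed in the 8-library model (adjusted p = 0.0287), and 1 and 0 members passed without cDC2 replicate 1 and 2.

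Proteases of the endosome and lysosome were lower in cDC1 while their inhibitor Cst3 was higher. Of 14 cathepsins, related proteases and cystatins tested, 8 were lower and 1, Cst3, was higher (median −2.56). Cathepsin L (Ctsl) was read at 10.9 and 11.7 CPM in cDC1 and 2538 and 1415 CPM in the cDC2 gate (log2 fold change −7.45 ± 0.42, adjusted p = 0.00585), which is 175-fold lower in cDC1. Legumain (Lgmn), which processes antigens and other proteases, was at 81.2 and 109.8 CPM in cDC1 and 2272 and 2213 CPM in the cDC2 gate (log2 fold change −4.55 ± 0.25, adjusted p = 0.00583). Cathepsin B (Ctsb) was at 361 and 369.8 CPM in cDC1 and 3183 and 2639.8 CPM in the cDC2 gate (log2 fold change −2.99 ± 0.20, adjusted p = 0.00877) and cathepsin D (Ctsd) at 74.2 and 29.6 CPM in cDC1 and 1361 and 1052 CPM in the cDC2 gate (log2 fold change −4.54 ± 0.53, adjusted p = 0.0274). Cstb, a second inhibitor, was lower with the proteases at 133 and 109 CPM in cDC1 and 508 and 523 CPM in the cDC2 gate (log2 fold change −2.09 ± 0.22, adjusted p = 0.0202). In the 8-library model, and likewise without either cDC2 library, 3 were lower and 1 higher.

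Of 23 lysosomal membrane and hydrolase genes, 4 were lower in cDC1 and 0 higher (median −1.37, 20 of 23 negative). Lamp1, a main protein of the lysosomal membrane, was at 81.4 and 106 CPM in cDC1 and 797 and 903 CPM in the cDC2 gate (log2 fold change −3.18 ± 0.24, adjusted p = 0.0112), and granulin (Grn) at 501 and 402 CPM in cDC1 and 1956 and 1429 CPM in the cDC2 gate (log2 fold change −1.91 ± 0.25, adjusted p = 0.033). Psap, whose product activates lysosomal hydrolases, was among the 10 highest genes of cDC1 at 6483 and 8208 CPM in cDC1 and 4922 and 5488 CPM in the cDC2 gate (log2 fold change 0.50 ± 0.19, adjusted p = 0.258). The count was 1 in the 8-library model, 0 without either cDC2 library and 13 by DESeq2.

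Upstream windows of lysosomal genes are known for the CLEAR element, bound by the TFEB family, whose core TCACGTG was searched on both strands. It was in 5.11% of 9914 windows of tested genes. The share was 5.11% in 176 windows of genes lower in cDC1 and 4.39% in 114 windows of genes higher. In the lysosome list 4 of 21 windows held it, and 1 of 4 windows of its called genes. In the cathepsin list it was 3 of 12 windows, the same 3 among the 9 windows of its called genes. Lamp1 has 4 matches within its last 62 bases and Ctsd has 3, of which 2 overlap as a palindrome.
Lamp1 (chr8:13158911-13159160, plus strand): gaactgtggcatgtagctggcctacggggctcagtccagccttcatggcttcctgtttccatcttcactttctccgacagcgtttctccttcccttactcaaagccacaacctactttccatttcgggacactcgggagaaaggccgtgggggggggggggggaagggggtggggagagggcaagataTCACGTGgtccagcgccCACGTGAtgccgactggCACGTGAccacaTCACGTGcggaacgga
Ctsd (chr7:142387828-142388077, minus strand): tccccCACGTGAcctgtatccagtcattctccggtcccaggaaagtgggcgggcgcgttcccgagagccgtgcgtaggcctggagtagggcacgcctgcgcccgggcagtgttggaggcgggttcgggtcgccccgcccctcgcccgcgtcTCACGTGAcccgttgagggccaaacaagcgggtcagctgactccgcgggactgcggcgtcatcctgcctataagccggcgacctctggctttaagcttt
Both genes were lower in cDC1 and share the element with genes that were not called, such as Mcoln1, whose window also holds 3.

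Genes of glycolysis and of the response to hypoxia were lower in cDC1, 12 of 25 tested passing downward and 1 upward (median −2.02, 21 of 25 negative). They span the pathway. Slc2a1, the glucose importer, was at 29.5 and 52.2 CPM in cDC1 and 292 and 317 CPM in the cDC2 gate (log2 fold change −2.90 ± 0.35, adjusted p = 0.0286). In the middle of the pathway, aldolase (Aldoa) was at 476 and 467 CPM in cDC1 and 2733 and 2660.0 CPM in the cDC2 gate (log2 fold change −2.51 ± 0.17, adjusted p = 0.00996) and triosephosphate isomerase (Tpi1) at 151 and 206 CPM in cDC1 and 970.0 and 949.5 CPM in the cDC2 gate (log2 fold change −2.43 ± 0.24, adjusted p = 0.0198). Replicates of Aldoa lay close together in each group and far apart between groups. Pyruvate kinase (Pkm) stood at 753 and 926 CPM in cDC1 and 3880.5 and 3361 CPM in the cDC2 gate (log2 fold change −2.11 ± 0.20, adjusted p = 0.0188), and the lactate exporter gene Slc16a3 at 38.4 and 32.2 CPM in cDC1 and 248.96 and 293 CPM in the cDC2 gate (log2 fold change −2.94 ± 0.25, adjusted p = 0.0135). Gapdh (log2 fold change −1.76 ± 0.21, adjusted p = 0.0274), Pgk1 (log2 fold change −1.67 ± 0.21, adjusted p = 0.0279), Pgam1 (log2 fold change −1.67 ± 0.20, adjusted p = 0.0274) and Pfkl (log2 fold change −2.13 ± 0.29, adjusted p = 0.033) were lower too.

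Of the hypoxia targets in the list, 3 passed downward: Bnip3, a mitophagy receptor, was at 32.1 and 13.4 CPM in cDC1 and 296 and 349 CPM in the cDC2 gate (log2 fold change −3.83 ± 0.50, adjusted p = 0.0328), Vegfa, the angiogenic factor, at 4.64 and 1.84 CPM in cDC1 and 73.6 and 78.9 CPM in the cDC2 gate (log2 fold change −4.55 ± 0.61, adjusted p = 0.0346), and Ero1l, an oxidase of the endoplasmic reticulum, at 9.93 and 16.4 CPM in cDC1 and 116 and 147 CPM in the cDC2 gate (log2 fold change −3.32 ± 0.39, adjusted p = 0.0274). Egln3, Pdk1 and Ndrg1 were not called. Pfkp, the platelet-type phosphofructokinase, was the 1 gene higher in cDC1, at 595 and 579 CPM in cDC1 and 203 and 173 CPM in the cDC2 gate (log2 fold change 1.64 ± 0.20, adjusted p = 0.0277), opposite to the liver-type Pfkl. Hif1a itself was at 160.3 and 129 CPM in cDC1 and 241 and 377 CPM in the cDC2 gate (log2 fold change −1.09 ± 0.30, adjusted p = 0.166) and Ldha at 1269 and 1472 CPM in cDC1 and 2108 and 2195 CPM in the cDC2 gate (log2 fold change −0.65 ± 0.18, adjusted p = 0.157), neither passing. Glycolytic genes, Gapdh above all, have many processed copies, and Eno1 was read near 0 in these files at 0.230 to 1.34 CPM. In the 8-library model 4 were lower and 0 higher, by DESeq2 18 and 1, and without either cDC2 library 0 passed.

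**Figure D4:**
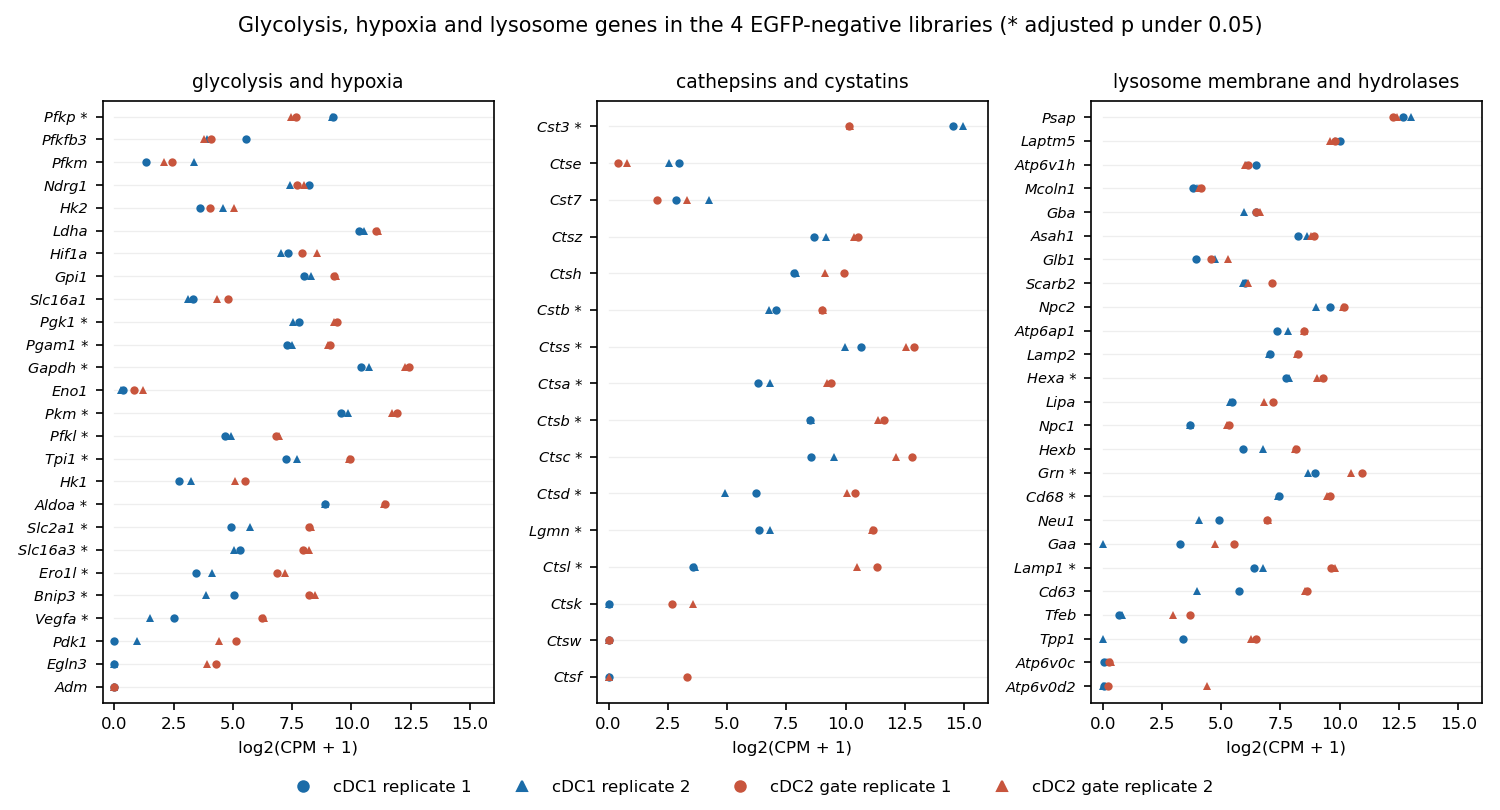
Level of each listed glycolysis, hypoxia, cathepsin and lysosome gene as log2(CPM + 1) in the 4 EGFP-negative libraries, with symbols as in the plot of marker levels; a star marks an adjusted p under 0.05. Red symbols of the cDC2 gate lie to the right of blue ones for 12 starred glycolysis and hypoxia genes and to the left for Pfkp, and Cst3 stands alone at the top of the cathepsin panel.

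The core of the hypoxia response element, ACGTG, was searched in the same windows because HIF factors bind it. It is short, and each TCACGTG match also holds it. It was in 22.5% of windows of all tested genes. The share was 22.7% in 176 windows of genes lower in cDC1 and 17.5% in 114 windows of genes higher. In the glycolysis and hypoxia list, 50% of 36 windows held it, and so did 9 of 16 windows of its called genes. Members that were not called, such as Ldha and Hif1a, held it as well. The 9 windows of called genes belong to 8 genes, of which 4 with 1 annotated start each are printed, the matches in capitals.
Slc2a1 (chr4:119108495-119108744, plus strand): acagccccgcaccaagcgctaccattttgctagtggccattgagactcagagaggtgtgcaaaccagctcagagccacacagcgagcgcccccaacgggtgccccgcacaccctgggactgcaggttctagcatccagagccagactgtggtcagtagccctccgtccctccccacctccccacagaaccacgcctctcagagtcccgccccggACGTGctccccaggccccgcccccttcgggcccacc
Slc16a3 (chr11:120948817-120949066, plus strand): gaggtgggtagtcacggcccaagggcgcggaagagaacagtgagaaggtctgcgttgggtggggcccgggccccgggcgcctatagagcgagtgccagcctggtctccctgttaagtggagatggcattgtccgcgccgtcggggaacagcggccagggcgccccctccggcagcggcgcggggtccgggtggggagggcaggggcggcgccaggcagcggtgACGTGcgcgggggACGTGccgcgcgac
Bnip3 (chr7:138909507-138909756, minus strand): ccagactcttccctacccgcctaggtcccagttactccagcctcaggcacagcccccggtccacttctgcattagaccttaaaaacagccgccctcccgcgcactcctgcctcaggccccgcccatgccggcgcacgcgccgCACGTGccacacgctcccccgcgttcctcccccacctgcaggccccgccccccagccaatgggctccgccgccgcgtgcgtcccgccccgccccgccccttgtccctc
Pgk1 (chrX:106186850-106187099, plus strand): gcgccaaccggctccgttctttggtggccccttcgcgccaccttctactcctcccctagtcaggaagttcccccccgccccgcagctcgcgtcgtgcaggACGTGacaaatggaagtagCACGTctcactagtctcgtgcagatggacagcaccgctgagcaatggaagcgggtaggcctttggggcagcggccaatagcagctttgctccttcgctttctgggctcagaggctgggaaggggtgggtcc
The match begins 36 bases before the annotated start in Slc2a1, 27 and 14 bases before it in Slc16a3, and 150 and 131 bases before it in Pgk1. In Bnip3 the 2 matches read on opposite strands of 1 palindrome, 108 bases before the start. Windows of Tpi1, Pfkl and Gapdh, which were lower as well, and of Pfkp, which was higher, held 0 matches.

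Lipid droplet and cholesterol efflux genes leaned the same way, with 3 of 16 lower in cDC1 and 0 higher (median −2.27). Plin2, the coat protein of lipid droplets, was at 145 and 195 CPM in cDC1 and 988 and 861 CPM in the cDC2 gate (log2 fold change −2.45 ± 0.24, adjusted p = 0.0201), and Hilpda, which slows lipid breakdown in hypoxia, at 28.3 and 10.7 CPM in cDC1 and 805 and 645 CPM in the cDC2 gate (log2 fold change −5.22 ± 0.57, adjusted p = 0.0233). Abca1, the cholesterol exporter, was at 1.35 and 1.93 CPM in cDC1 and 90.1 and 78.5 CPM in the cDC2 gate (log2 fold change −5.68 ± 0.45, adjusted p = 0.0112). The count was 2 in the 8-library model and 0 without either cDC2 library. Sterol and fatty acid synthesis genes had 0 calls in 22, with a median of 0.34.

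Oxidative phosphorylation genes leaned slightly to cDC1, with 24 positive and 6 negative fold changes (median 0.30). Of 30 tested, 2 were higher in cDC1 and 0 lower. The 2 were Ndufa4 at 209 and 177 CPM in cDC1 and 33.2 and 26.3 CPM in the cDC2 gate (log2 fold change 2.69 ± 0.28, adjusted p = 0.0202) and Ndufa6, a complex I subunit, at 204 and 154 CPM in cDC1 and 56.5 and 54.5 CPM in the cDC2 gate (log2 fold change 1.69 ± 0.26, adjusted p = 0.0471). Cytosolic ribosomal protein genes all had positive fold changes (34 genes, median 0.66), and 1 passed. Their genes have many processed copies. Cell cycle genes had a median of 0.38, with 22 positive and 3 negative fold changes. Of 25 tested, 1 was called, the histone variant gene H2afz. It was at 2224 and 2301 CPM in cDC1 and 727 and 611 CPM in the cDC2 gate (log2 fold change 1.76 ± 0.19, adjusted p = 0.0213). None of these calls held in the 8-library model or without either cDC2 library. DESeq2 called 3 of 30, 18 of 34 and 2 of 25 members, beside 1391 of all 10089 genes.

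Genes of stress and survival gave few calls. Of 21 immediate early and ERK feedback genes, 2 were lower in cDC1 (median −0.26). Dusp6, a phosphatase that restrains ERK, had 2 counts in cDC1 against 101 and 65.3 CPM in the cDC2 gate, a ratio of 1763 (95% counting interval 488 to 14560.0) in favour of the latter (adjusted p = 0.0166). Ier3 was at 82.5 and 33.9 CPM in cDC1 and 1012 and 912 CPM in the cDC2 gate (log2 fold change −4.05 ± 0.50, adjusted p = 0.0286). The list had 1 call in the 8-library model, 0 without either cDC2 library, 5 or 3 without cDC1 replicate 1 or 2, and 7 by DESeq2. In the Bcl2 family 1 of 14 passed, the death-promoting gene Pmaip1, higher in cDC1 at 240.2 and 396 CPM in cDC1 and 21.4 and 30.7 CPM in the cDC2 gate (log2 fold change 3.61 ± 0.38, adjusted p = 0.0224). It passed in the 8-library model but not without either cDC2 library. Type I interferon response genes had 0 calls in 24 by edgeR and 4 higher and 2 lower by DESeq2. Mx1, for example, was at 27.6 and 52.9 CPM in cDC1 and 8.63 and 6.95 CPM in the cDC2 gate (log2 fold change 2.37 ± 0.56, adjusted p = 0.12) and Oas1a at 16.6 and 15.3 CPM in cDC1 and 55.0 and 52.4 CPM in the cDC2 gate (log2 fold change −1.75 ± 0.37, adjusted p = 0.0958), on opposite sides.

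Whether the difference between cDC1 and the cDC2 gate depended on EGFP was tested as an interaction over all 8 libraries. The EGFP-positive libraries came from the same kind of tumour and mouse. The edgeR test called 0 of 11394 genes, with 1180 at an unadjusted p under 0.05 and a smallest adjusted p of 0.141, while DESeq2 called 714. Without EGFP-positive cDC1 replicate 1 or 2, edgeR called 515 or 668. Those 2 libraries differed more from each other than replicates of the other groups, with a correlation of 0.629 and 23.4% of genes of 100 or more counts in either at 0 in the other. Of the 292 called genes, 262 had the same sign of fold change in the EGFP-positive libraries and 30 the opposite sign. The same share over all tested genes was not computed, so this count has no baseline. The EGFP-positive comparison called 26 of 11394 genes (0.228%) and the EGFP-negative one 41 (0.36%) in the same 8-library model.

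Slc16a3 and Dusp6 were among the 5 genes that shared the smallest adjusted interaction p of 0.141, with Birc5, Rnase4 and Wls. In the 8-library model the log2 fold change of Slc16a3 was −2.92 in EGFP-negative and 1.49 in EGFP-positive cells. Dusp6, lower in cDC1 among EGFP-negative cells, stood at 1.47 among EGFP-positive cells. Tpi1, Pkm and Pfkl, at adjusted p = 0.154 each, were likewise negative among EGFP-negative cells and positive among EGFP-positive cells, at 0.46, 0.80 and 1.48. Over the glycolysis and hypoxia list in the 8-library model, the median was −2.00 in EGFP-negative and 0.46 in EGFP-positive cells. Its mean log2(CPM + 1) was 5.49 and 5.59 in EGFP-negative cDC1, 7.31 and 7.33 in the EGFP-negative cDC2 gate, 6.88 and 6.70 in EGFP-positive cDC1 and 7.04 and 6.93 in the EGFP-positive cDC2 gate. The EGFP-negative cDC1 pair is thus the lowest of the 4 groups. By this mean, cDC1 differed from the cDC2 gate by −1.78 in EGFP-negative and −0.193 in EGFP-positive cells. Among EGFP-positive cells the mean and the median of the list therefore differ in sign. Single genes named above pointed the same way in both fractions: C1qa at −10.16 and −9.54, Cd24a at 5.58 and 4.38 and Dpp4 at 5.75 and 7.91.

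**Figure D5:**
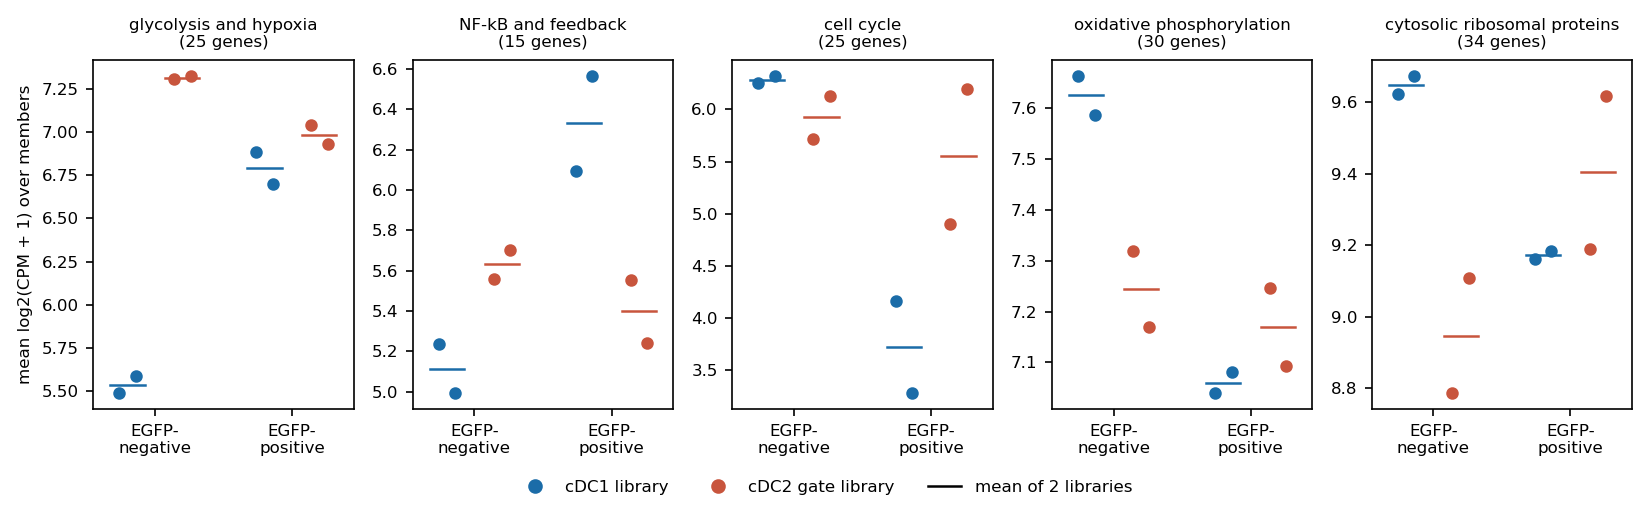
Mean log2(CPM + 1) over the members of 5 gene lists in each of the 8 libraries (points), by EGFP fraction, blue for cDC1 and red for the cDC2 gate, with bars at the mean of 2 libraries; each panel has its own range, which does not start at 0. In the glycolysis and hypoxia panel the 2 EGFP-negative cDC1 libraries, at 5.49 and 5.59, lie below the other 6.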

How the data were processed

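RNA sequencing libraries from sorted tumour cells were analysed as read counts per gene, which the authors deposited as whole numbers for 24369 genes. Per the labels' protocols, cDNA was made by a published full-length method and libraries with KAPA Hyper Prep kits. Per the submitters' processing notes, Trimmomatic 0.39, STAR 2.7.5c and Cufflinks 2.2.1 were used with mm10. For the read counter, annotation and strand setting, the sources used here give no name.

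Samples were grouped by their titles. Genes passing edgeR's filterByExpr were fitted with edgeR 4.0.16 under R 4.3.3 (TMM scaling, robust quasi-likelihood test, Benjamini-Hochberg adjustment over 10089 genes, threshold 0.05) on the 4 EGFP-negative libraries. The interaction used all 8 libraries. Standard errors (SE, after ±) were derived from the test statistic. DESeq2 1.42.0, limma 3.58.1 with voom, other scalings and filters, a replicate block and leave-one-out fits were alternatives. The members and lists, and the choice of the 4-library fit over the 8-library fit, were made with earlier results of these data known. Without molecular identifiers, the 95% exact binomial counting intervals and the bounds at 3 counts cover counting error only.

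Named genes were the 15 largest differences in each direction at 10 CPM or more, up to 4 members per list of smallest p, members at 0 in 1 group, 15 fixed marker genes, and the 10 highest genes per group without ribosomal RNA. Apoe, Bnip3, C3ar1, Ccl17, Ccl22, Cfb, Cstb, Ctsd, Ctss, Ero1l, Fcgrt, Gapdh, H2-DMa, H2-Ob, Hif1a, Ifi205, Il12b, Itgae, Ldha, Msr1, Pfkl, Pfkp, Pgam1, Pgk1, Slc2a1, Trem2 and Vegfa were added after their values were seen. Upstream sequences and positions came from RefSeq (GRCm38.p6), which matched 7782 of 10089 genes. Some genes are not reported here. An annotated start may not be the one used in these cells.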

Additional observations from a re-analysis of the deposited data

Results flagged for a closer look

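For 4 gene lists, the mean log2(CPM + 1) of both EGFP-negative cDC1 libraries lay on one side of both EGFP-negative cDC2 libraries, and that of both EGFP-positive cDC1 libraries on the opposite side of theirs. For the lists as a whole this difference was not tested. The 4 were found by searching all gene lists with a mean in each library for this pattern, and the other lists did not show it. With groups of 2 libraries, such a separation can arise by chance. How many of the searched lists would show it by chance was not computed, so the 4 have no baseline. Cell cycle genes were 0.362 higher in cDC1 among EGFP-negative cells and differed by −1.83 among EGFP-positive cells. Cytosolic ribosomal protein genes gave 0.701 and −0.231, oxidative phosphorylation genes 0.381 and −0.109, and NF-kB and feedback genes −0.517 and 0.932. Among EGFP-positive cells the ribosomal and oxidative phosphorylation separations were narrow. The ribosomal means were 9.162 and 9.186 in cDC1 and 9.191 and 9.618 in the cDC2 gate. Those of oxidative phosphorylation were 7.039 and 7.082 in cDC1 and 7.247 and 7.093 in the cDC2 gate. For single genes the interaction test of the report called 0 by edgeR, 1180 of 11394 having an unadjusted p under 0.05, and 714 by DESeq2. Groups of 2 libraries were too small for a search for outlying samples.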

How the results depend on the processing

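Against 292 calls, the 8-library model gave 41, DESeq2 1391, no low-count filter 476 of 12437 genes, and leaving out 1 library each 29 to 652. Without cDC2 replicate 1 or 2 it was 29 or 38, and without cDC1 replicate 1 or 2 652 or 618. A lone remaining library is there assumed to vary like the other group. The remaining alternatives gave 255 to 424 calls: RLE scaling 293, Rn45s removed 290, no robust estimation 280, a filter at 10 CPM 424, voom with quality weights 331 and the 6 libraries without EGFP-positive cDC1 392. The interaction, with 0 calls, reached 714 by DESeq2 and 0 to 668 on leaving out 1 library. With the replicate number as a block, 255 genes were called, 218 of them among the 292, and the interaction stayed at 0. Of the 116 named genes called, 10 lost their call under the block: Adam19, Bco2, Cyba, Folr2, H2-Aa, H2-DMa, Ndufa6, Nfkbie, Tbx21 and Tmsb4x. The labels do not say whether equal numbers share a mouse or day. The titles carry a code common to the libraries of one number, with no meaning given, and the deviations of replicate 1 from its group mean correlated at 0.014 between cDC1 and cDC2 across 10089 genes. The cause of these changes was not tested. Among the named genes, none of the called changed direction under an alternative. Leaving out 1 library, Irf4 ranged from −3.78 to 2.93 and Itgax from −0.61 to 0.044, neither called, both turning without cDC2 replicate 2. Of the list medians, plasmacytoid genes turned to −1.10 with the filter at 10 CPM, with 1 gene left, and fibroblast and matrix genes ranged from −2.06, without cDC1 replicate 1, to 8.87 on leaving out 1 library. Endothelial genes turned to −7.06 with the filter at 10 CPM, with 1 gene left, and to −7.00 without cDC1 replicate 1. The medians of the class I, costimulation, transcription factor, interferon and Bcl2 lists, which lay between −0.28 and 0.81 in every setting, changed sign in 1 to 3 of 14 settings each. The median over all tested genes ranged from −0.27 to 0.05. With 2 libraries a group and a biological coefficient of variation of 0.890, no log2 fold change under 1.05 in size was called.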

Other observations

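Outside the lists, further called genes fell into a few kinds, described here after their values were seen and with no test of the kinds. Genes for lectin-like receptors first known from NK cells were higher in cDC1: Klrk1, which encodes NKG2D, at 282 and 204 CPM in cDC1 and 20.6 and 34.2 CPM in the cDC2 gate (log2 fold change 3.15 ± 0.37, adjusted p = 0.0274), Klrd1, which encodes CD94, at 155 and 65.5 CPM in cDC1 and 6.50 and 3.79 CPM in the cDC2 gate (log2 fold change 4.42 ± 0.62, adjusted p = 0.0391), and Klrb1b at 332 and 278 CPM in cDC1 and 62.2 and 49.0 CPM in the cDC2 gate (log2 fold change 2.46 ± 0.26, adjusted p = 0.021). T and NK cell markers such as Cd3e and Ncr1 were at 0 in all 4 libraries. Genes of proteins that organise actin were higher too. Tmsb10, a thymosin, was at 3035 and 2376 CPM in cDC1 and 394 and 449.6 CPM in the cDC2 gate (log2 fold change 2.68 ± 0.22, adjusted p = 0.0124), Lsp1, a leukocyte protein that binds actin, at 1702 and 1959 CPM in cDC1 and 286 and 216 CPM in the cDC2 gate (log2 fold change 2.87 ± 0.24, adjusted p = 0.0135), Zyx, a focal adhesion protein, at 809 and 703 CPM in cDC1 and 112 and 147 CPM in the cDC2 gate (log2 fold change 2.54 ± 0.24, adjusted p = 0.0184), and Cnn2, a calponin, at 342 and 381 CPM in cDC1 and 68.2 and 48.2 CPM in the cDC2 gate (log2 fold change 2.63 ± 0.27, adjusted p = 0.0212). In Lsp1 and Cnn2 the fold change had the same direction among EGFP-positive cells, at 3.403 and 3.77.

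The superoxide dismutase genes pointed apart. Sod1, the cytosolic form, was higher in cDC1 at 294 and 241 CPM in cDC1 and 52.4 and 56.9 CPM in the cDC2 gate (log2 fold change 2.29 ± 0.24, adjusted p = 0.0209). Sod2, the mitochondrial form, was lower at 128 and 130.1 CPM in cDC1 and 594 and 460.3 CPM in the cDC2 gate (log2 fold change −2.03 ± 0.23, adjusted p = 0.0233). Cybb, the catalytic subunit of the phagocyte oxidase, was lower at 51.1 and 22.4 CPM in cDC1 and 489.8 and 451 CPM in the cDC2 gate (log2 fold change −3.68 ± 0.47, adjusted p = 0.0307), and its partner Cyba at 617 and 603 CPM in cDC1 and 1479 and 1322 CPM in the cDC2 gate (log2 fold change −1.20 ± 0.18, adjusted p = 0.0446). Prdx5, a peroxiredoxin, was lower at 199 and 138 CPM in cDC1 and 1573 and 1076 CPM in the cDC2 gate (log2 fold change −2.98 ± 0.32, adjusted p = 0.0224), and so was the cystine importer gene Slc7a11 at 9.93 and 15.3 CPM in cDC1 and 96.7 and 127 CPM in the cDC2 gate (log2 fold change −3.15 ± 0.39, adjusted p = 0.0289). 2 genes of prostaglandin synthesis were lower. Ptges stood at 0.186 and 0.0920 CPM in cDC1 and 69.6 and 40.7 CPM in the cDC2 gate (log2 fold change −8.58 ± 0.74, adjusted p = 0.0147), and Ptgs1 had 2 counts there against 40.9 and 34.6 CPM in the cDC2 gate, a ratio of 809.8 (95% counting interval 224 to 6693). Of these genes, Tmsb10, Cnn2 and Ptgs1 passed in the 8-library model as well.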
